A study of Mus musculus with 4 samples.

Results

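10 secreted proteins of salivary acini and intercalated ducts were followed gene by gene in single cells of the mouse submandibular gland: Smr3a, Bpifa2, Mucl1, Dcpp1, Dcpp2, Dcpp3, Pip, Muc19, Smgc and Lpo. They were taken by gene symbol from the 31053 genes listed in each of 4 count matrices. Of these 10 genes, 9 had a row in the matrices, and Muc19 was not analysed here. Cells came from female C57BL6/J mice, and after enzymatic dissociation magnetic beads had removed EpCAM-positive epithelium and Ter119-positive red cells, followed by dead cells, so that the suspension was enriched for stroma. In the 2 deligated libraries (mice 14 weeks old) a metal clip had closed the main ducts for 14 days and had then been removed for 5 days. The 2 homeostatic libraries came from mice 12 weeks old without surgery. Animals per library were not stated, the protocols name sublingual glands beside submandibular glands, and age, surgery and software version differ together between the groups, so these cannot be told apart. Where nothing says that libraries came from separate animals, p-values measure only the spread between libraries.

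Acinar cells make and store most salivary protein in granules, and intercalated ducts carry the primary saliva from the acini to the striated and granular ducts. Duct closure is a standard model of reversible acinar loss in this gland. Dissociation breaks secretory cells, and their very abundant secretory RNA then enters droplets of other cells, so that the same transcripts can be read both inside their source cells and as free RNA in leukocytes and endothelial cells.

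The genes lie at several loci (GENCODE M21 on GRCm38). Dcpp1, Dcpp2 and Dcpp3 stand side by side on the plus strand of chromosome 17, at chr17:23880876-23882853, chr17:23880880-23900788 and chr17:23917458-23919441, and the annotated span of Dcpp2 overlaps that of Dcpp1. They encode demilune cell and parotid proteins, and their transcripts were 92.1% (Dcpp1 and Dcpp2), 92.0% (Dcpp1 and Dcpp3) and 96.9% (Dcpp2 and Dcpp3) identical. Of all 50-base words in their transcripts, 46.5% (Dcpp1), 44.2% (Dcpp2) and 45.8% (Dcpp3) also occurred in another Dcpp gene, so the split of reads among the 3 is uncertain and their sum is the safer value. Smgc, which encodes submandibular gland protein C (chr15:91838265-91861438), overlaps Muc19 on the same strand. Bpifa2, the parotid secretory protein (chr2:154008265-154016079), Pip, prolactin-induced protein (chr6:41847535-41852065), Mucl1, a small mucin-like glycoprotein (chr15:103751919-103755469), and Lpo, the antimicrobial lactoperoxidase (chr11:87806428-87828289), overlapped no other annotated gene. Smr3a, submaxillary gland androgen regulated protein 3A (chr5:88002549-88008534), overlaps Gm28434.

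The 250 bases upstream of the RefSeq start (build GRCm38.p6) are printed for the 3 Dcpp genes, which were read in the same cells, and for Pip and Smgc, which lead the other groups of secretory cells described further on. Capitals mark every TATAA on either strand, a motif chosen after these sequences had been seen.
Dcpp1 upstream, chr17:23880626-23880875, + strand: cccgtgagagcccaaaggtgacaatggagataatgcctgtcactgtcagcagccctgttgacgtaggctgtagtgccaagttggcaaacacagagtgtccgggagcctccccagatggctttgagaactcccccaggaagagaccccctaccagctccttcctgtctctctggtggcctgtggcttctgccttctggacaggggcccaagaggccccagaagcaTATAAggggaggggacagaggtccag
Dcpp2 upstream, chr17:23898472-23898721, + strand: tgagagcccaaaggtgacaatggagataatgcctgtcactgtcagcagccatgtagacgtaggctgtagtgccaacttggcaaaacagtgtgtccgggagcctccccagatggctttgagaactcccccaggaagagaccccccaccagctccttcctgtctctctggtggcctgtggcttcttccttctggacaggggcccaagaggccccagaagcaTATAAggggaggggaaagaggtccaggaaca
Dcpp3 upstream, chr17:23917208-23917457, + strand: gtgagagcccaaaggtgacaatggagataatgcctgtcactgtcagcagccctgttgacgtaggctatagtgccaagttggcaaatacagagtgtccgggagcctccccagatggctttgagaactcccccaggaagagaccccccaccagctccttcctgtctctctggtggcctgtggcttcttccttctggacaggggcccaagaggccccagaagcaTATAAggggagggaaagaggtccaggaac
Pip upstream, chr6:41847299-41847548, + strand: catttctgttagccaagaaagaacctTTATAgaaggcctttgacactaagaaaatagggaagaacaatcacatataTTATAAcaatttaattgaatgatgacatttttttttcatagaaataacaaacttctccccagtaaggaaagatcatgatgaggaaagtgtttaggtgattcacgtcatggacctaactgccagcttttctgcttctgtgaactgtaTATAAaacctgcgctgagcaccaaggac
Smgc upstream, chr15:91838078-91838327, + strand: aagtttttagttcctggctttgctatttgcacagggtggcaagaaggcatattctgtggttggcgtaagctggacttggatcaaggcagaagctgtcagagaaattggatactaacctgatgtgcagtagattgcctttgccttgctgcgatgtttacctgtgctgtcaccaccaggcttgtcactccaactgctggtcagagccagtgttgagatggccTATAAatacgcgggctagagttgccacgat
The upstream stretches of the Dcpp genes were 97.1% (Dcpp1 and Dcpp2), 98.0% (Dcpp1 and Dcpp3) and 98.0% (Dcpp2 and Dcpp3) identical, whereas Pip and Dcpp3, Smgc and Dcpp3, and Pip and Smgc were 53.7%, 58.0% and 58.3% identical. TATAA nearest to the start began 26, 31 and 29 bases before it in Dcpp1, Dcpp2 and Dcpp3, 28 in Pip and 30 in Smgc. It occurred in 7 of the 8 upstream stretches at hand, all but that of Lpo, and in 22.8% of 32851 RefSeq stretches of that length. The E-box letters CANNTG occurred in 5 of the 8 and in 66.2% of all. The GENCODE models of Pip and Smgc begin inside these windows, and the window of Dcpp2 lies within its GENCODE span, which begins far upstream at the start of Dcpp1. Such matches describe letters, not binding.

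Epithelial cells were gated as those with at least 1 UMI (unique molecular identifier, a count of captured RNA molecules) of the keratins Krt8 or Krt18 and none of Ptprc or Pecam1. The gate held 48 and 107 cells in the deligated and 2582 and 2729 cells in the homeostatic libraries, 1.10%, 1.37%, 24.3% and 25.0% of retained cells. Between 64.6% and 72.9% of gated cells had a UMI of 8 epithelial markers, all 8 of which were detected in every library. Levels are UMIs scaled to a total of 1000000 per gate and library (CPM). Fibroblast markers were seen in 58.3% and 38.3% of deligated but 5.58% and 5.13% of homeostatic gated cells, with summed levels of 13587 and 6945 against 756 and 703.8 CPM, so the deligated gate is small and mixed. Basal and myoepithelial markers were seen in 45.8% and 15.9% of deligated against 3.76% and 4.25% of homeostatic gated cells (summed levels 3857 and 3625 against 357 and 638 CPM), and mural markers in 20.8% and 16.8% against 2.36% and 2.31%. The part of the basal and myoepithelial cells in the results was not tested. Cells holding UMIs of other lineages (such as Col1a1, Pdgfra, Cdh5 or Tyrobp, and the hemoglobin genes Hba-a1 and Hbb-bs) were then left out. Erythroid markers were seen in 14.6% and 47.7% of deligated and 52.6% and 32.8% of homeostatic gated cells, so this step also acted on hemoglobin RNA. The cells left were not counted. Of the products, 6 were tested and all 6, Smgc, Bpifa2, Pip and the 3 Dcpp genes, fell in the deligated gate (edgeR, adjusted p under 0.05), against 0.297% of 7399 genes lower. In that fit 58 genes were called, 36 higher and 22 lower. Reference cells, with Ptprc (leukocytes) or Pecam1 (endothelium) and no keratin UMI, numbered 3514, 6353, 5106 and 5031, and should not make these products. The libraries held 4725 to 13266 barcodes and 35662241 to 53898793 UMIs, and pairs of libraries shared 14 to 54 cell barcodes.

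In homeostatic epithelial cells the Dcpp genes were the most abundant of the 9 products, followed by Pip, Smgc and Bpifa2, then Lpo and Mucl1, with Smr3a close to 0. Dcpp3 stood at 32891 and 15158 CPM in homeostatic libraries 1 and 2. Dcpp2 followed with 21145 and 9378 CPM. Dcpp1 had 8805 and 6550.4 CPM. For the Dcpp genes library 1 was thus higher than library 2 throughout, by more for Dcpp2 and Dcpp3 than for Dcpp1. Pip was at 4501 and 4883 CPM. Smgc was at 1022 and 1462 CPM and Bpifa2 at 1318 and 924 CPM, so these neighbours in the order did not differ beyond their spread between libraries. Lpo had 30.4 and 29.1 CPM, and Mucl1 7.35 and 5.37 CPM. Smr3a had 1 UMI in each of the homeostatic gates, 4 in the gate of deligated library 1, all in 1 cell, and none in deligated library 2.

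**Figure D1:**
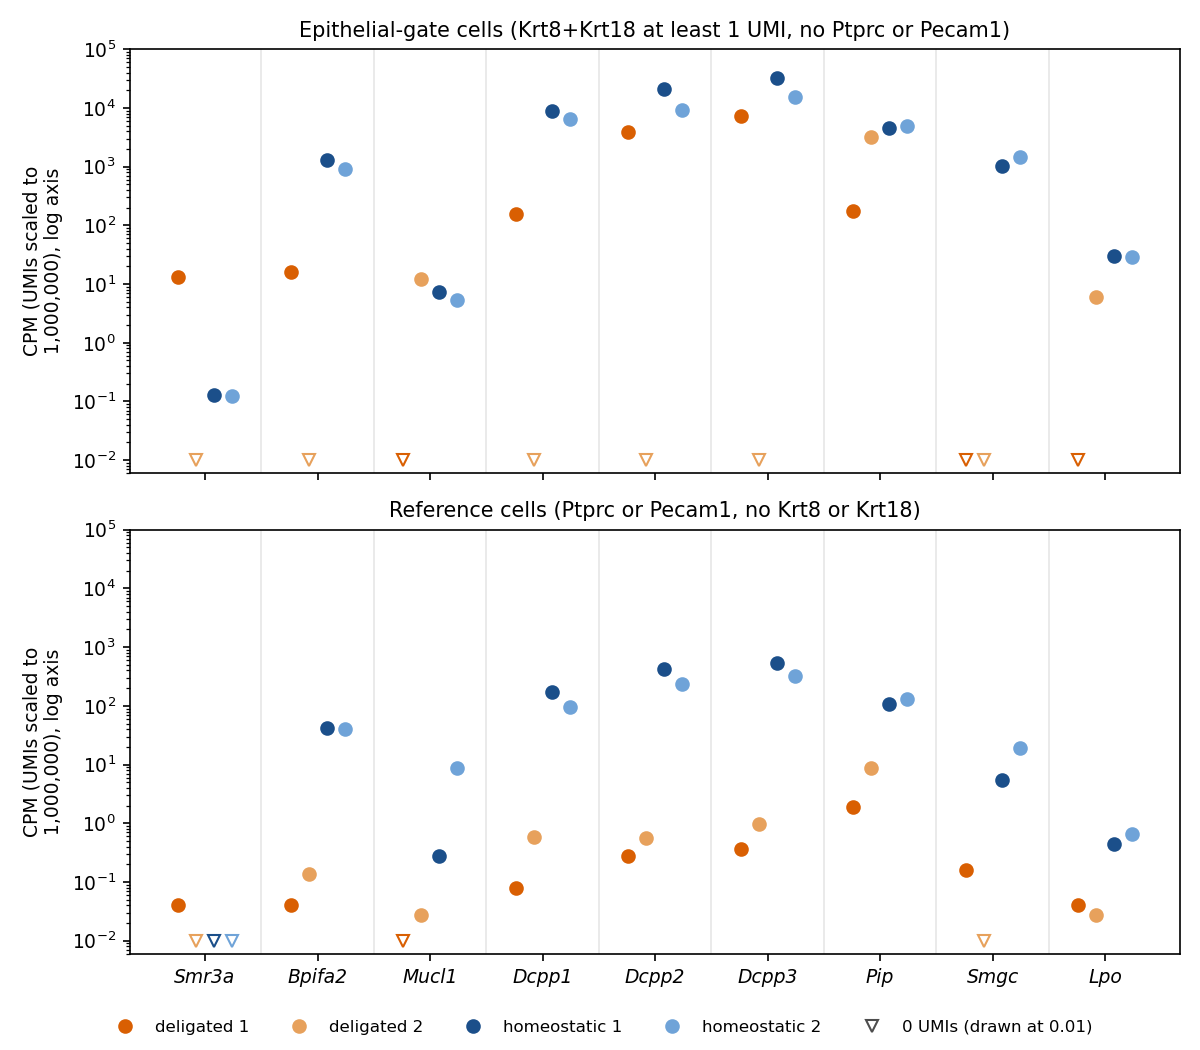
Level of each product (CPM, log axis) in epithelial-gate cells (top) and reference cells (bottom), 1 point per library, with triangles for 0 UMIs. Dcpp3 lies at 32891 and 15158 in homeostatic epithelial cells, and the deligated points of the reference cells lie below the homeostatic ones for all genes but Smr3a.

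These sums came from few cells. In the homeostatic libraries 3 and 2 cells together held at least 50% of the Dcpp3 UMIs of the epithelial gate, 2 and 2 cells held that share of Smgc, 4 and 2 of Bpifa2, and 8 and 14 of Pip. The cells richest in Dcpp3 carried 139766 and 117453 UMIs in all, of which Dcpp3 alone had 51228 and 49566. A level in this gate is therefore set by a handful of cells, which is why the number of cells above a fixed UMI count is given next.

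Cells with at least 100 UMIs of a product (a limit chosen after seeing the data) fell into 3 groups, which shared some cells. The first held the Dcpp genes, summed, and comprised 101 and 86 retained homeostatic cells against 2 and 1 deligated cells. Every Bpifa2-rich cell belonged to it, 26 of 26 in homeostatic library 1 and 22 of 22 in library 2. Bpifa2 was detected in 92.1% and 97.7% of the homeostatic Dcpp cells. The second group was rich in Pip, with 87 and 101 homeostatic cells against 2 and 6 deligated cells. The third, rich in Smgc, had 8 and 8 homeostatic cells and none in the deligated libraries. Dcpp-rich and Pip-rich cells overlapped in 3 cells of each homeostatic library, Dcpp-rich and Smgc-rich cells in 2 and 0, and Pip-rich and Smgc-rich cells in 3 and 2. Few of the many Dcpp-rich and Pip-rich cells were thus shared, but a larger part of the 8 and 8 Smgc-rich cells was.

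**Figure D2:**
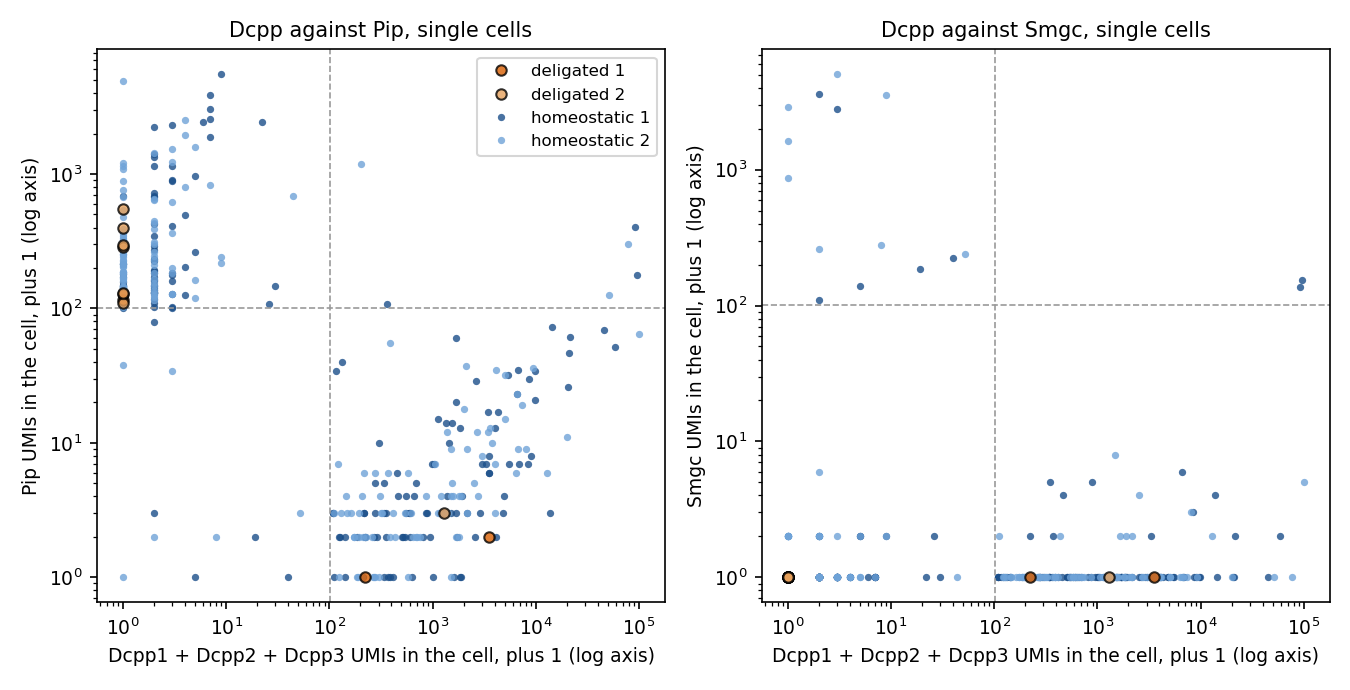
Single retained cells with at least 100 UMIs of Dcpp1 to Dcpp3 summed, of Pip or of Smgc, as UMIs plus 1 on log axes, with dashed lines at 100 UMIs. In the upper right quadrants, 3 cells in each homeostatic library are rich in both Dcpp and Pip, and 2 and 0 in both Dcpp and Smgc.

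Dcpp-rich cells spent much of their RNA on this family. In a homeostatic Dcpp-rich cell a median of 32.8% (library 1) and 39.6% (library 2) of all UMIs were Dcpp, and at most 89.1% and 92.5%. Their median depth was 4591 and 3081 UMIs. The keratin gate missed many of them, since 22 and 28 such cells had neither keratin nor Ptprc or Pecam1 UMIs, and 20 and 8 lay among the reference cells. Among the paralogs of a cell Dcpp3 usually led and Dcpp1 was usually last. Dcpp3 made up a median of 48.3% and 50.0% of the Dcpp UMIs, Dcpp2 36.2% and 34.9%, and Dcpp1 15.4% and 15.8%. The middle 50% of homeostatic cells lay between 46.0% and 53.1% (library 1) and between 46.0% and 54.7% (library 2) for Dcpp3. Dcpp1 varied more, with 10.2% to 19.3% and 4.89% to 22.1% for the middle 50%, and it was at 0 in 2 and 4 cells. The full ranges over both libraries were 0 to 33.7% (Dcpp1), 0.258% to 52.7% (Dcpp2) and 37.1% to 99.7% (Dcpp3).

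The 3 deligated Dcpp-rich cells differed among themselves. One epithelial-gate cell of deligated library 1 had 45 Dcpp1, 1198 Dcpp2 and 2260 Dcpp3 UMIs, or 1.28%, 34.2% and 64.5% of its Dcpp UMIs, and it supplied 99.3% of the Dcpp3 UMIs of that gate. Another cell of this library, with keratin and with Ptprc or Pecam1, had 28, 0 and 194 UMIs. The cell of deligated library 2 had 340, 407 and 544 UMIs, and was outside the epithelial gate. These proportions lay within the homeostatic ranges, apart from the cell without Dcpp2 UMIs. Bpifa2 had 0, 0 and 3 UMIs in these cells, against medians of 33.0 and 25.5 UMIs in the homeostatic Dcpp-rich cells.

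Pip-rich cells also carried other acinar transcripts. In the homeostatic libraries their median levels were 731 and 757 UMIs of Prol1, a proline-rich salivary protein, and 197 and 217 UMIs of Car6, the secreted carbonic anhydrase. The Dcpp-rich cells had medians of 5 and 4 for Prol1 and 1 and 1 for Car6. Lpo was detected in 42.5% and 40.6% of homeostatic Pip-rich cells but in 0.990% and 0.00% of Dcpp-rich cells, and Mucl1 in 34.5% and 17.8% against 0.00% and 1.16%. A count of 0 allows a share of up to 2.97% of the 101 cells of library 1 and 3.49% of the 86 cells of library 2, which limits cells with a UMI at their depth and not cells expressing the gene. The Pip-rich cells were deeper, with medians of 15599 and 19739 UMIs, and the part of depth in these shares was not tested. Pip itself made up a median of 1.17% and 1.17% of the UMIs of these cells. The deepest of them held 403292 UMIs and 3897 of Pip.

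Smgc-rich cells, 16 in all, were deep and clearly epithelial. Their median depth was 20917 and 17835 UMIs, and all of them had UMIs of Krt8, Krt18, Epcam and Aqp5, the acinar water channel. Wfdc12, a small secreted whey acidic protein, had medians of 1213 and 214.5 UMIs there, against 27.0 and 31.0 in Pip-rich cells and 0 in Dcpp-rich cells of both homeostatic libraries. A single cell carried 45.2% (library 1) and 41.9% (library 2) of the Smgc UMIs of the epithelial gate.

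When the epithelial-gate cells were clustered with the 9 genes left out, the products parted in part only. The acinar-like cluster (272 cells, 6 of 8 acinar markers) held 93.4% of Pip, 98.5% of Lpo and 93.3% of Mucl1 UMIs of the gate, but 0.317% of Dcpp3. One mixed cluster (163 cells) had 7 basal and myoepithelial and 5 acinar markers raised, with Acta2 leading its genes. It alone was split again, because it held the most Dcpp3 UMIs, so the gathering of products in its small parts follows partly from that choice. A part of 17 of its cells had 6 acinar and 3 intercalated duct markers raised, and held 60.6% of Dcpp3, 58.0% of Dcpp1 and 57.2% of Bpifa2. Of these 17 cells 8 had at least 100 UMIs of Dcpp3 and 10 had at least 100 of Smgc, so that this part held most of the Smgc-rich cells of the gate, although 13.2% of the Smgc UMIs. Cluster 7 (438 cells) had 2 intercalated duct markers (Sox9 and Wfdc18) and 2 ionocyte markers raised, with Ascl3 leading its genes. It held 31.9% of Dcpp3 and 31.3% of Bpifa2, in few cells, since 28.5% of its cells had a Dcpp3 UMI and 35 had at least 100. Another part of 15 cells, with 4 acinar and 4 intercalated duct markers, held 66.0% of Smgc, nearly all of it in the 4 cells with at least 100 UMIs. In cluster 11 (141 cells) the median was 3 Smgc UMIs per cell, but no cell had 100. The acinar-like cluster held 14.4% of the Smgc UMIs, with 1 cell of at least 100. The clusters and parts holding most Dcpp and Smgc UMIs stayed unnamed, because none of them met the marker rule for a single cell type. All cells of both small parts were homeostatic, and the acinar-like cluster had 0 and 3 deligated against 127 and 142 homeostatic cells.

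**Figure D3:**
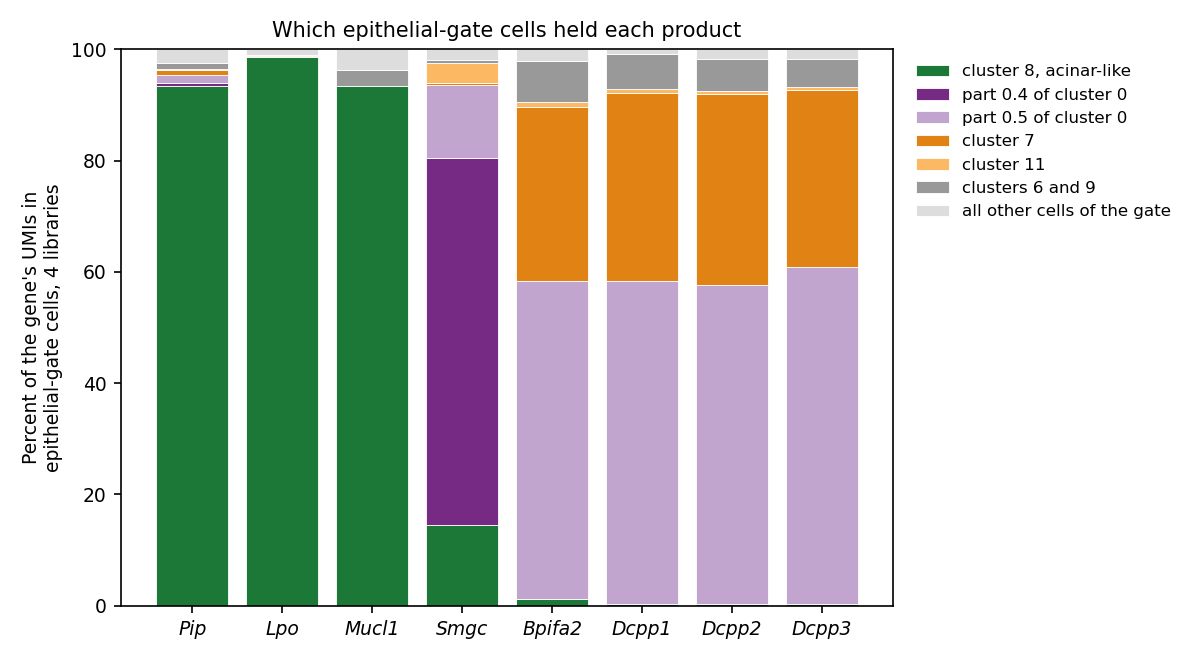
Share of each gene's epithelial-gate UMIs (percent, 4 libraries summed) by cluster, with the 9 genes left out of the clustering. Pip, Lpo and Mucl1 lie almost wholly in the acinar-like cluster, the small part of 15 cells holds 66.0% of Smgc UMIs (4 rich cells), and the part of 17 cells and cluster 7 hold most Bpifa2 and Dcpp UMIs. The part of 17 cells also has 10 Smgc-rich cells. Both small parts come from the only cluster that was split, picked by its Dcpp3 UMIs.

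Deligated against homeostatic epithelial cells were compared to ask how the secretory transcripts stood 5 days after release of the ducts. Smgc, Bpifa2, Dcpp1 and Lpo were lower in the deligated gate, whereas Pip, Dcpp2, Dcpp3 and Mucl1 did not pass the test. Of 8 genes tested, 4 fell and none rose (edgeR quasi-likelihood, adjusted p under 0.05), against 6.63% of 11525 genes lower and 10.3% higher. The median log2 fold change was -4.09 over the 8 genes and 0.00 over all genes. Smr3a did not pass the filter on low counts. Over all genes 1189 were higher and 764 lower. Without TMM scaling these were 3845 and 131, with the median of all genes shifted to 0.94, and the same number of the products, 4, fell, against 1.14% of genes lower.

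Smgc had 0 UMIs in both deligated gates against 7929 and 11977 UMIs in the homeostatic gates. Set against 3 counts over the deligated group, its pooled level was at least 264-fold lower (edgeR adjusted p = 0.000186). Bpifa2 had 5 and 0 UMIs in the deligated gates, all 5 in a single cell, or 16.3 and 0 CPM. The difference was -8.10 ± 0.70 (SE) on the log2 scale (edgeR adjusted p = 0.000289), with both homeostatic libraries higher than both deligated ones. Dcpp1 stood at 156 and 0 CPM, or -7.67 ± 1.20 (SE) on the log2 scale (edgeR adjusted p = 0.00335). Of its 48 UMIs in the gate of deligated library 1, 45 were in 1 cell. The sum of the Dcpp genes, the safer value, was not tested. Lpo had 0 and 2 UMIs in the deligated gates, a difference of -4.16 ± 0.63 (SE) on the log2 scale (edgeR adjusted p = 0.00275). The 2 groups did not overlap for these genes, nor for Pip, Dcpp2 and Dcpp3, so this does not set the called genes apart. The share of all genes without overlap was not counted.

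The deligated libraries disagreed over the other products. Dcpp3 was at 7412 CPM in deligated library 1, nearly all in the 1 cell described above, and at 0 in library 2, which gave a log2 difference of -3.77 ± 1.77 (SE) at an edgeR adjusted p = 0.168. Dcpp2 followed the same pattern, with 3942 and 0 CPM (log2 difference -4.02 ± 1.68, edgeR adjusted p = 0.127). Pip was at 173 and 3231 CPM, so that library 2 came near the homeostatic 4501 and 4883 CPM (log2 difference -2.29 ± 0.99, edgeR adjusted p = 0.140). Of the 1059 Pip UMIs in deligated library 2, 552 were in 1 cell. Mucl1, with 0 and 4 UMIs in the deligated gates (0 and 12.2 CPM, the latter above both homeostatic libraries), differed by -0.95 ± 0.87 (SE) on the log2 scale (edgeR adjusted p = 0.478).

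How many genes passed rested on single cells and libraries. With the cell richest in these products left out of each library, an alternative chosen after seeing the data, 7 of 8 fell against 6.91% of genes lower, and the Dcpp3 log2 fold change was -10.31 (edgeR adjusted p = 0.000636). Without deligated library 1 7 fell (9.22% of genes lower) and without deligated library 2 8 fell (17.4% lower), 1 library then standing for its group. With at least 3 keratin UMIs per cell 1 gene, Smgc, fell, and the whole fit then called 4 genes (0.0439% lower). The gate also changed in makeup between the groups, as the cluster counts above show, so that fewer secretory cells in the gate and less secretory RNA per cell cannot be told apart.

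Genes of related function, in lists chosen with earlier results known, were counted in the same fit, in which 6.63% of all genes were lower and 10.3% higher. Of 18 other salivary products 7 were tested, and 6 fell, 1 did not pass and none rose, with a median log2 fold change of -3.51 against 0.00 over all genes. Wfdc12 fell by 4.87, Wfdc18, a marker of intercalated ducts here, by 4.11 and Agr2, a disulfide isomerase of secretory cells, by 3.89 on the log2 scale (edgeR adjusted p = 0.00252, 0.000311 and 0.0201). Of 15 genes of the acinar secretory machinery 9 fell, 6 did not pass and none rose (median -1.42), led by Spdef and Bhlha15, transcription factors of secretory cells, and Slc12a2, the chloride importer, with log2 fold changes of -9.32, -3.33 and -2.46. Spdef was at 0 UMIs in both deligated gates, so its fold depends on the prior count. Of 17 granular duct products 16 were tested, 12 fell, 4 did not pass and none rose (median -2.31), led by Egf at -2.94.

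Epithelial-gate cells were next set against reference cells of the same libraries to see which products stood above free RNA. Of 8 genes tested 7 were higher in the epithelial gate, against 21.0% of 15615 genes higher (edgeR, adjusted p under 0.05). The log2 differences ran from 5.76 (SE 0.59) for Bpifa2 to 7.43 (SE 0.91) for Smgc, with a median of 6.86 over the 8 genes and -0.30 over all genes. Over all genes 3273 were higher and 4997 lower, or 1861 and 5669 without TMM scaling. In the homeostatic libraries Dcpp3 was 60.4-fold and 47.1-fold, Pip 41.4-fold and 38.0-fold, and Smgc 186-fold and 75.0-fold higher in epithelial than in reference cells. The deligated gates could not show this for every product. Dcpp1, Dcpp2 and Dcpp3 were at 0 in the epithelial gate of deligated library 2 against 0.594, 0.567 and 0.972 CPM in its reference cells, and Smgc was at 0 against 0.161 CPM in library 1. A count of 0 in these gates allows levels of up to 9.15 and 9.77 CPM (3 counts), above the reference levels, so a difference was not detectable there at this depth. Mucl1 did not pass (log2 difference 3.33, SE 1.45, edgeR adjusted p = 0.0918). One reference cell of homeostatic library 2 held 206 of its 211 Mucl1 UMIs there, and without reference cells of 100 or more product UMIs the Mucl1 difference was 6.07 (SE 0.62, edgeR adjusted p = 0.000255).

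Free secretory RNA was widespread in the homeostatic libraries and scarce in the deligated ones. Of reference cells 58.1% and 52.8% had a UMI of at least 1 product in the homeostatic libraries against 1.85% and 2.22% in the deligated libraries. After each cell was thinned to 1000 UMIs, leaving out 237, 246, 24 and 33 shallower cells, the shares were 22.9% and 19.5% against 0.487% and 0.538%. In epithelial cells thinned alike they were 52.4% and 46.7% against 8.57% and 5.80%. That left out 988 of 2582 and 1093 of 2729 homeostatic cells, and 13 of 48 and 38 of 107 deligated cells. Pip was the most widespread single gene, in 10.1% and 9.53% (95% exact Clopper-Pearson interval of the latter 8.71% to 10.4%) of thinned homeostatic reference cells. The deligated shares of Pip were 0.258% and 0.411%. Dcpp3 was found in 8.19% and 4.79% against 0.143% and 0.0791%. Intervals cover counting error only.

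All 7 products that passed the filter on low counts were lower in deligated reference cells, against 26.3% of 15417 genes lower (edgeR, adjusted p under 0.05), with a median log2 fold change of -8.37 against 0.02 over all genes. The size differed between genes. Dcpp3 was at 0.361 and 0.972 CPM in the deligated and 545 and 322 CPM in the homeostatic libraries (log2 difference -9.18 ± 0.46, edgeR adjusted p = 0.000371). Pip was at 1.89 and 8.74 against 109 and 128 CPM, or -4.36 ± 0.59 (SE) on the log2 scale (edgeR adjusted p = 0.00482). Lpo had the smallest, -3.87 ± 0.65 (edgeR adjusted p = 0.00894), and was at adjusted p = 0.0699 without homeostatic library 1. Lpo rested on 1 UMI in the reference cells of each deligated library, so its rank against Pip is uncertain. Bpifa2, Dcpp1, Dcpp2 and Smgc lay between -7.43 and -9.43. The Dcpp level of reference cells rested in part on rare rich cells: without those of 100 or more product UMIs, homeostatic Dcpp3 was 83.8 and 63.4 CPM while Pip was 107 and 106 CPM. All 7 products still fell in that fit (26.4% of genes lower), which was added after seeing the data.

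No product passed the test of whether the change between groups differed between the epithelial and reference cells. None of the 8 had an adjusted p under 0.05 (edgeR), against 11.2% of 15615 genes called, and 2 had an unadjusted p under 0.05. DESeq2 called none either, against 15.8% of genes. Over all genes 904 differences were higher and 845 lower, or 3508 and 27 without TMM scaling. The count of products called ran from 0 to 5 over the alternatives.

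The mix of products depended on whether rare product-rich cells were counted. Over all cells Pip made up 6.46% (homeostatic library 1) and 12.7% (library 2) of the product UMIs of the epithelial gate, 4.90% and 11.8% of those in Ptprc cells, and 14.5% and 14.9% of those in Pecam1 cells. Dcpp3 made up 47.2% and 39.5% in the epithelial gate, 43.9% and 40.6% in Ptprc cells and 39.2% and 37.3% in Pecam1 cells. Dcpp3 thus led over Pip in each of these classes.

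Cells with 100 or more UMIs of any product were then left out of all 3 classes, a step chosen after seeing the data. Pip now made up 59.5% and 58.5% in the epithelial gate, 38.1% and 38.5% in Ptprc cells and 37.7% and 44.0% in Pecam1 cells. Dcpp3 made up 16.5% and 14.9% in the epithelial gate, 32.2% and 26.4% in Ptprc cells and 29.5% and 21.8% in Pecam1 cells. With the rich cells left out, Pip was the leading single gene in each class, and Dcpp3 had a larger share outside the epithelial gate than inside it. Dcpp2 made up 19.9% and 19.3% in Ptprc cells and 22.5% and 16.6% in Pecam1 cells. Dcpp1 made up 6.84% and 7.75% in Ptprc cells and 6.65% and 6.55% in Pecam1 cells. Summed, the Dcpp genes thus led over Pip in both, narrowly in Pecam1 cells of library 2. In the epithelial gate, with Dcpp2 at 11.6% and 11.5% and Dcpp1 at 3.76% and 4.15%, Pip led over that sum. Smgc made up 6.99% and 9.38% in the epithelial gate, 1.42% and 5.86% in Ptprc cells and 2.03% and 9.09% in Pecam1 cells. These shares were not tested, and the limit of 100 UMIs itself removes Dcpp-rich cells.

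**Figure D4:**
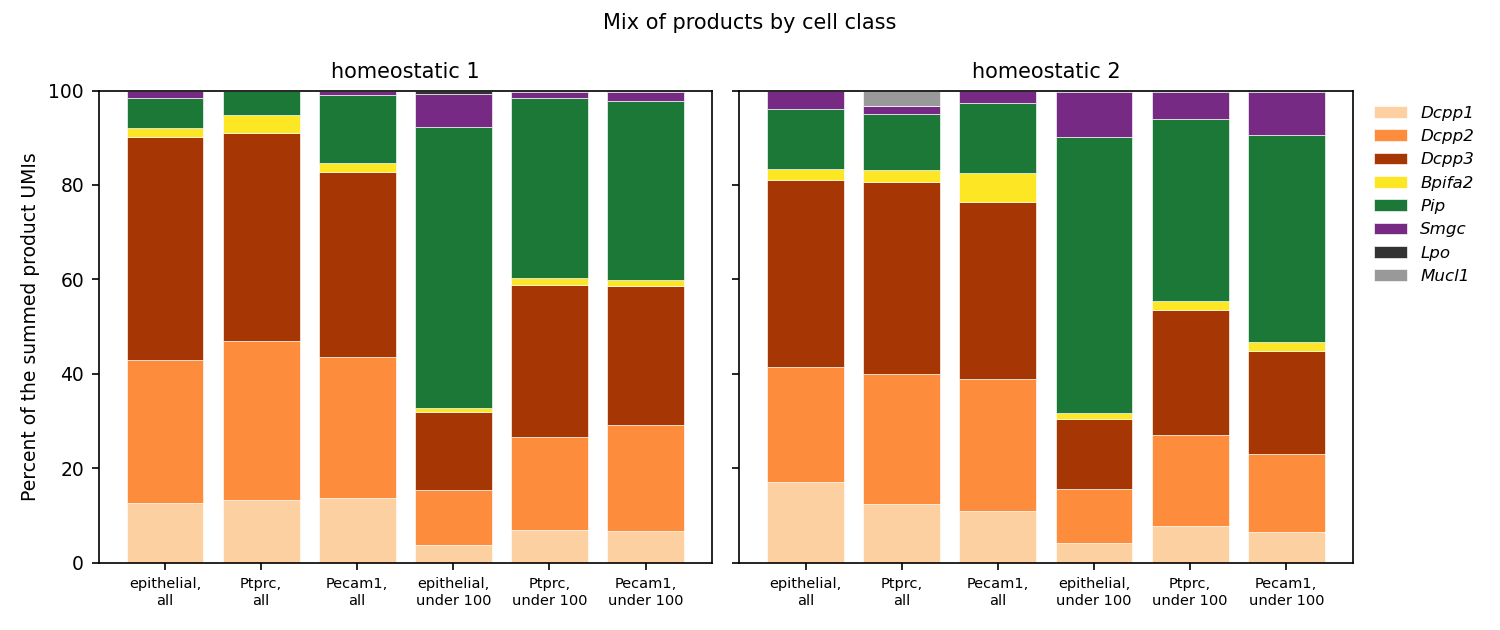
Share of each product in the summed product UMIs (percent) in homeostatic libraries 1 and 2, for epithelial-gate, Ptprc and Pecam1 cells, over all cells (3 bars on the left of each panel) and over cells with under 100 UMIs of every product (3 bars on the right). Pip makes up between 4.90% and 14.9% of the bars over all cells and between 37.7% and 59.5% of the others.

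Over 16 sums (4 libraries by epithelial, Ptprc, Pecam1 and ungated cells) the genes most like the summed products, among 12066 genes, were Wfdc18 (Pearson r = 0.968), Fxyd2, a regulator of the sodium pump of duct cells (r = 0.961), and Klk1, the tissue kallikrein of ducts (r = 0.958). These are descriptions over sums of log2(CPM + 1) that share libraries and depth.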

How the data were processed

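Droplet single-cell RNA-seq (10x Genomics) of 4 libraries was analysed, 2 deligated and 2 homeostatic. The deposited matrices hold raw UMI counts per gene and barcode. Per the file headers they were made with Cell Ranger 6.0.1 (deligated) and 7.0.0 (homeostatic). The submitters' processing notes name 6.0.1 for all samples, the build mm10 and Seurat. Whether introns were counted is not given in the sources used here. Each version holds 1 group, so the version cannot be told apart from the group.

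Cells with at least 300 genes and at most 10% mitochondrial UMIs were kept, and the highest-scoring simulated-doublet neighbours removed at 0.8% per 1000 cells, leaving 4357, 7823, 10615 and 10900 cells. UMIs were summed per library and gate and tested with edgeR 4.0.16 (R 4.3.3; quasi-likelihood, TMM, filterByExpr, Benjamini-Hochberg over all genes, threshold 0.05), with the library as replicate. For epithelial-gate against reference cells the library was a term. DESeq2 1.42.0 was an alternative. The 9 genes were left out of the clustering of epithelial-gate cells (scanpy 1.11.5, 2000 variable genes, 20 components, 15 neighbours, Leiden resolution 0.5). Clusters took the name of a class with 3 or more markers each present in 10% of cells and 2-fold raised, unless a second class also had 3. This rule was set with the clusters in view. So was the splitting of the mixed cluster, picked as the one with the most Dcpp3 UMIs. The test scripts were tested on simulated data.

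All 10 genes were to be named in every comparison, with the 3 largest called changes of each list. The genes, lists and gates were chosen with earlier results of these data known. Of 31053 gene identifiers, 30934 (99.6%) matched GENCODE M21. RefSeq gave upstream sequence for 8 genes. Alternatives covered scaling, filters, cells, gates, thinning, introns, replicate block and each library left out.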

Additional observations from a re-analysis of the deposited data

How the results depend on the processing

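Of 8 products tested, 4 were lower in the deligated epithelial gate in the report (16.9% of all genes called in either direction). They were 1 with at least 3 keratin UMIs per cell (0.0439%) and 7 without the richest cell of each library (17.4%). With the replicate block they were 7 (18.0%) and with all deposited barcodes 6 (16.5%). All 6 tested fell with thinned cells (6.29%) and in the gate without other lineages (0.784%). With 1 library left out, 1 library stood for its group, so those counts are not set beside these. The replicate numbers are not said to pair libraries, and within-group differences of the groups did not correlate (r = -0.05 epithelial, -0.06 reference). With the block 7 products fell in reference cells, as without it (40.2% and 43.3% of all genes called). Products differing between gates (0 in the report) were 1 without TMM scaling (22.6% of all genes called), 5 without the low-count filter (10.7%), 4 with all deposited barcodes (10.5%), 3 with thinned cells (9.69%), 1 in the gate without other lineages (6.58%), and 2 to 4 with 1 library left out (1.35% to 17.4%). Mucl1 changed sign in epithelial cells without deligated replicate 1 (log2 fold change 0.12, against -0.95 in the report and -8.14 without deligated replicate 2). The cause of these shifts was not tested. Of single-gene settings, 91 of 120 in epithelial cells, 102 of 103 in reference cells and 121 of 126 between gates kept direction and call.

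The mean share of cells with a product UMI, 7.18% in deligated epithelial cells, was 13.2% with at least 3 keratin UMIs. Unthinned means were 60.6% (homeostatic epithelial), 55.5% (homeostatic reference) and 2.03% (deligated reference), against 49.6%, 21.2% and 0.513% thinned.

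Genes called over all genes moved by over 1.5 times from 1953 (deligated epithelial cells) to 3976 without TMM, 1067 without filter, 442 thinned, 4 with at least 3 keratin UMIs, 58 in the gate without other lineages, 3842 without deligated library 2, and 465 and 534 without homeostatic library 1 or 2. In reference cells 6672 became 2263 and 2467 without homeostatic library 1 or 2. Between gates 8270 became 5024 and 4502. For the difference of changes 1749 became 3535 without TMM, 2812 without deligated library 2, 215 and 308 without homeostatic library 1 or 2, 17 and 993 under the other gates, and 1053 against all cells outside the gate.

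With 48 and 107 deligated epithelial cells, 3 UMIs equal 9.77 and 9.15 CPM, and 3 UMIs over both gates equal 4.72 CPM.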

Other observations

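Many barcodes rich in secretory RNA were not among the retained cells. Of 181 and 158 homeostatic barcodes with at least 100 Dcpp UMIs, 101 and 86 were retained, while 65 and 55 had fewer than 300 genes and 13 and 14 were taken as doublets. Of 95 and 117 Pip-rich barcodes 87 and 101 were retained, with 1 and 3 under 300 genes. Smgc-rich barcodes numbered 13 and 14, of which 8 and 8 were retained and 2 and 4 exceeded 10% mitochondrial UMIs. The deligated libraries had 2 and 2 Dcpp-rich and 2 and 6 Pip-rich barcodes before any filter.

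The single Mucl1-rich reference cell of homeostatic library 2 had 19535 UMIs, among them 206 of Mucl1, 734 of Mucl2 and 89 of Prol1, but 10 of Pip and 0 of Krt8 and Krt18. It also carried 18 UMIs of Ptprc and the macrophage transcripts Retnla (556), Cd74 (222) and Lyz2 (121).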
